A study of Mus musculus with 3 samples.

Results

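The S100 genes encode small calcium-binding proteins of the EF-hand type. Of the 17 S100 genes in the deposited count matrices, which list 32285 genes, 7 were described here: S100a1, S100a4, S100a6, S100a10, S100a11, S100a13 and S100a16. They were taken by symbol and followed across retinal cell classes and across 3 ages. The list was chosen by earlier results on these same counts, namely levels by class and ratios between ages, so its levels are a description and no test was made on them.

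S100 proteins mostly work as dimers. Calcium binding opens a hydrophobic face that docks onto partner proteins such as annexins, non-muscle myosin and cytoskeletal proteins, and some family members leave the cell and signal through the receptor RAGE. S100A10 is the exception that has lost calcium binding and is held by annexin A2 at the plasma membrane. In the retina S100B, with S100A1, is known as a glial protein, while S100A4 and S100A6 are better known from cells that remodel their cytoskeleton.

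The study asked how retinal vessel cells differ with age. C57BL/6JRj mice were 3 (Young), 12 (Adult) or 23 (Old) months old and had no treatment, and the 4 retinas of 2 mice were pooled at each age. Cells were enriched on magnetic beads for CD31 (Pecam1), a surface protein of endothelial cells, and profiled by droplet 3′ RNA sequencing. Each age is therefore 1 library of pooled animals, so differences between animals could not be separated from differences between ages, and every interval below covers counting error alone.

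The 3 libraries held 2491 to 3243 cell barcodes and 16577026 to 19977238 unique molecular identifiers (UMIs, 1 per captured transcript), and 1705, 1957 and 1701 cells were kept. The median depth was 5964 to 6353 UMIs per cell. Between 0 and 2 kept barcodes were shared by any pair of libraries. Clusters were called "-like" after marker genes, and ages were compared in the 8 named or mixed classes that reached 30 cells in every library: 1299 endothelial-like, 788 mixed endothelial and pericyte, 400 pericyte-like, 113 smooth muscle-like, 603 Müller glia-like, 724 rod-like, 244 cone-like and 575 bipolar-like cells. All 13 endothelial markers were found in at least 20% of the endothelial-like cells, and 7 of 8 smooth muscle markers in the smooth muscle-like cells, where Cnn1 was found in 14.2%. A further cluster of 57, 68 and 80 cells, 3.34%, 3.47% and 4.70% of the Young, Adult and Old cells, also held all 13 endothelial markers but was left unnamed for its low UMI counts, under a limit set after the clusters were seen. The libraries also differed in what they carried beside the vessels: 37 of 38 lens-like cells came from the Adult library, 54 of 62 pigment epithelium-like cells from the Old library, and the Young, Adult and Old libraries held 10, 77 and 57 B cell-like cells. Levels are given as CPM, the UMIs of a gene in every 1000000 UMIs of that class and library. A 3′ library counts transcript ends, so no scaling by gene length was made, and levels are compared within a gene and not between genes.

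All 7 genes lie on mouse chromosome 3 (build GRCm38). S100a1 (90511034 to 90514392, minus strand), S100a13 (90514435 to 90524581), S100a16 (90537254 to 90543151), S100a4 (90603771 to 90606045) and S100a6 (90612882 to 90624181) are in a run of 12 S100 genes. S100a11 (93520488 to 93526287) and S100a10 (93555080 to 93564643) lie apart from it, next to each other. S100a1 and S100a13 start back to back, 42 bases apart, and these 42 bases are shown because the genes flanking them were highest in different cells. The stretches before S100a4, S100a6 and S100a11 are shown because the levels of these genes were higher in the Old than in the Young endothelial-like cells. All are plus strand, written 5′ to 3′, from the RefSeq promoter table of build GRCm38. The stretch before S100a4 ends just before its RefSeq start, and those before S100a6 and S100a11 end 12 and 8 bases before theirs, at the GENCODE start. Capitals mark the motif TATAAA, the core of a TATA box, before S100a4, and TGANTCA, the letters bound by AP-1 factors, before S100a11.
Between S100a1 and S100a13 (chr3:90514393-90514434): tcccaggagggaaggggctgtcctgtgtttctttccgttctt
Before S100a4 (chr3:90603670-90603769): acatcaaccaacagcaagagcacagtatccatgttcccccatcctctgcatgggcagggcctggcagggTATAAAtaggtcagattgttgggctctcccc
Before S100a6 (chr3:90612782-90612881): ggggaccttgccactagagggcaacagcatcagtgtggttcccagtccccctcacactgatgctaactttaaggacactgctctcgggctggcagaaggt
Before S100a11 (chr3:93520338-93520487): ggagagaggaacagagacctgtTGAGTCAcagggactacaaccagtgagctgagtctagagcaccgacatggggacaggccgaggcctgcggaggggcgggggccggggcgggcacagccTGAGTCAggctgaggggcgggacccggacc

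Of the 7 members, 6 had an entry in the promoter table, which runs from 250 bases before to 50 bases after a start; S100a10 had none. The TATAAA match began 31 bases before the RefSeq start of S100a4, and no other member with an entry held one on either strand. Among all 32851 promoter windows of 300 bases, 13.6% held TATAAA. The TGANTCA matches began 136 and 38 bases before the RefSeq start of S100a11, which is 128 and 30 bases before the end of the printed stretch, and 1 of the windows of S100a16 held another at 192 bases. TGANTCA, which reads the same on both strands, was found in 7.81% of all windows. A match is a description of letters and says nothing on whether a factor was bound.

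The members fell into different places across the retina. S100a13, which takes part in the release of proteins without a signal peptide such as FGF1, was highest in endothelial-like cells, with 484 CPM in Young, 461 in Adult and 476 in Old. The mixed endothelial and pericyte cells followed at 331 to 353 CPM, and their range did not overlap that of the endothelial-like cells. Müller glia-like cells held 121 to 131 CPM, and bipolar-like cells 1.53 to 3.64 CPM. Of the 10438 UMIs of S100a13, 46.9% came from endothelial-like cells.

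S100a1, best known as a regulator of calcium handling in muscle, was instead highest in Müller glia-like cells and in pigment epithelium-like cells. Müller glia-like cells held 392 CPM in Young, 427 in Adult and 459 in Old, and gave 44.5% of all S100a1 UMIs. Pigment epithelium-like cells held 1028, 824 and 906 CPM, but from 1, 7 and 54 cells. Endothelial-like cells came next at 84.5 to 105 CPM, a range that overlapped that of the cone-like cells at 71.2 to 101 CPM. So S100a1 and S100a13, whose starts are 42 bases apart, had their highest levels in different classes.

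S100a16, a widely expressed member of little known function, shared the glial and endothelial pattern. It measured 426, 500 and 478 CPM in Müller glia-like cells of the Young, Adult and Old libraries and 210, 235 and 217 CPM in endothelial-like cells. Pericyte-like cells held 8.58 to 19.9 CPM and smooth muscle-like cells 2.78 to 9.75 CPM. Among the vascular classes S100a16 was thus an endothelial gene, with ranges that did not meet those of the mural cells.

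S100a11, a partner of annexin A1 that acts in membrane repair, was a gene of the vessel wall. Among the compared classes it was highest in smooth muscle-like cells, with 527, 672 and 627 CPM in Young, Adult and Old, followed by pericyte-like cells with 405, 529 and 498 CPM, and the ranges of these neighbours overlapped. Endothelial-like cells held 279, 314 and 380 CPM. Müller glia-like cells were lower, at 89.99 to 98.9 CPM, B cell-like cells held 245 to 321 CPM, and rod-like, cone-like and bipolar-like cells lay at 12.1 CPM or less. A pseudogene of S100a11 is annotated elsewhere in the genome, and whether reads were lost to it was not tested.

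S100a6 (calcyclin), a partner of the proteins Cacybp and Sugt1, was highest, among the compared classes, in the cells that contract. Smooth muscle-like cells held 397 CPM in Young, 535 in Adult and 1005 in Old. Müller glia-like cells held 264, 343 and 279 CPM and endothelial-like cells 94.2, 159 and 247 CPM. In Young and Old, pericyte-like cells, which share much of the mural program with smooth muscle, held 17.2 and 28.5 CPM. S100a6 therefore separated the mural classes in those libraries, whereas S100a11 was high in each of them.

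S100a10, the annexin A2 partner that also binds tissue plasminogen activator, was highest outside the vessels. B cell-like cells held 601, 544.5 and 455 CPM in Young, Adult and Old, from 10, 77 and 57 cells. In Old, the 54 pigment epithelium-like cells held more, at 883 CPM. Müller glia-like cells held 178, 200 and 196 CPM and endothelial-like cells 139, 157 and 189 CPM, ranges that overlapped. Smooth muscle-like cells held 3.25 to 22.3 CPM. S100a10 and S100a11, adjacent on the chromosome, thus differed in the mural classes, where S100a11 was at its highest.

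S100a4, which binds non-muscle myosin and is often used to mark fibroblasts and migrating cells, was the scarcest member with 1079 UMIs in all kept cells. Of these, 37.7% were in Müller glia-like cells, at 76.1, 81.3 and 78.5 CPM in Young, Adult and Old. Endothelial-like cells held 12.8, 5.91 and 28.0 CPM. In the 400 pericyte-like cells no S100a4 UMI was counted at any age, where 3 counts would have given 4.29 CPM in Young, 5.42 in Adult and 6.1 in Old.

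**Figure D1:**
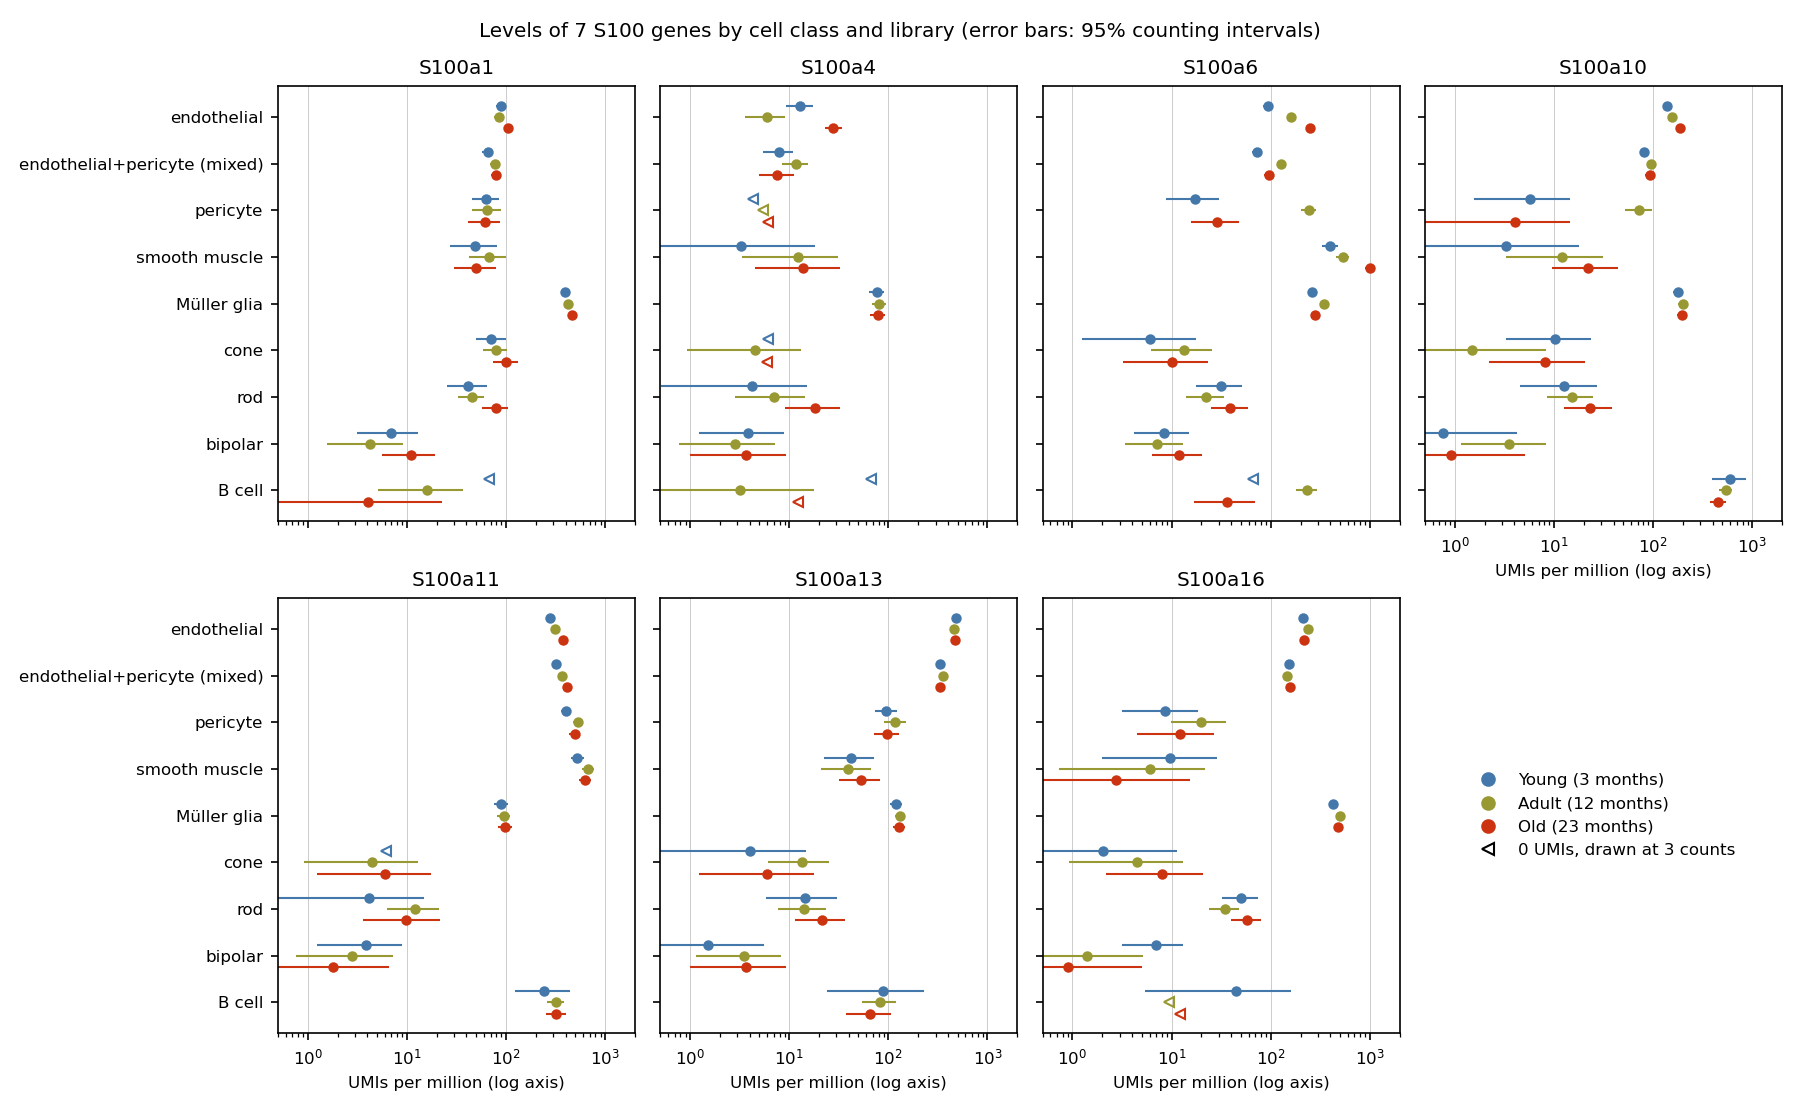
Level of each of the 7 genes (CPM, log axis) in 9 cell classes, with 1 point per library and error bars that are exact Poisson intervals of 95% (lower ends below the axis are not drawn). Open triangles stand for 0 UMIs, drawn at the level of 3 counts. S100a13 is highest in endothelial-like cells, S100a1 and S100a16 in Müller glia-like cells and S100a6 and S100a11 in smooth muscle-like cells.

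Levels in the neurons were mostly low. In rod-like cells S100a6 lay at 22.1 to 39.3 CPM and S100a4 at 4.17 to 18.0 CPM, and S100a1 at 41.7, 45.3 and 78.6 CPM. The bipolar-like cells lay lower, with S100a6 at 7.06 to 11.8 CPM and S100a1 at 4.23 to 10.9 CPM. The S100a1 level of the cone-like cells was above that of the bipolar-like cells in every library.

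With age, the largest ratios among the members in endothelial-like cells were those of S100a6 and S100a4. S100a6 had 309 UMIs in Young, 538 in Adult and 910 in Old, that is 94.2, 159 and 247 CPM. The Old to Young ratio was 2.62 (95% counting interval 2.30 to 2.99), and the Adult library lay between, at 1.69 times Young (1.46 to 1.95). S100a4 had 42, 20 and 103 UMIs, with an Old to Young ratio of 2.18 (1.51 to 3.21), and the Adult library was the lowest, at 0.461 times Young (0.257 to 0.804). Thus S100a6 was higher at each later age, and S100a4 was not.

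S100a11 and S100a10 were higher in Old by smaller amounts. S100a11 had 915, 1062 and 1398 UMIs (279, 314 and 380 CPM) and an Old to Young ratio of 1.36 (1.25 to 1.48). S100a10 had 457, 530 and 697 UMIs (139, 157 and 189 CPM) and the same ratio, 1.36 (1.21 to 1.53). Both had their Adult value between Young and Old.

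S100a1, S100a13 and S100a16 differed least. S100a1 had a ratio of 1.17 (1.01 to 1.37), and after each cell was thinned to 2000 UMIs it was 1.00. The ratio was 0.984 (0.918 to 1.05) for S100a13 and 1.03 (0.929 to 1.14) for S100a16, whose ratio was 0.895 after the same thinning. The intervals of S100a13 and S100a16 held 1, and for Adult against Young S100a16 had a ratio of 1.12 (1.01 to 1.24). All 7 members had at least 50 UMIs in endothelial-like cells. Of them 2 were at least 1.5-fold higher in Old than in Young, where 4.88% of all 9811 genes measured at that minimum were, and none was 1.5-fold lower, where 3.33% were. For Adult against Young the counts were 1 higher (S100a6) and 1 lower (S100a4), with 3.09% and 1.82% of all genes. For Old against Adult they were 2 higher (S100a6 and S100a4) and 0 lower, with 3.14% and 3.08% of all genes. The median log2 ratio from Young to Old was 0.44 over the members and 0.02 over all genes measured. These members were picked with these ratios known, so the counts describe them and no more.

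**Figure D2:**
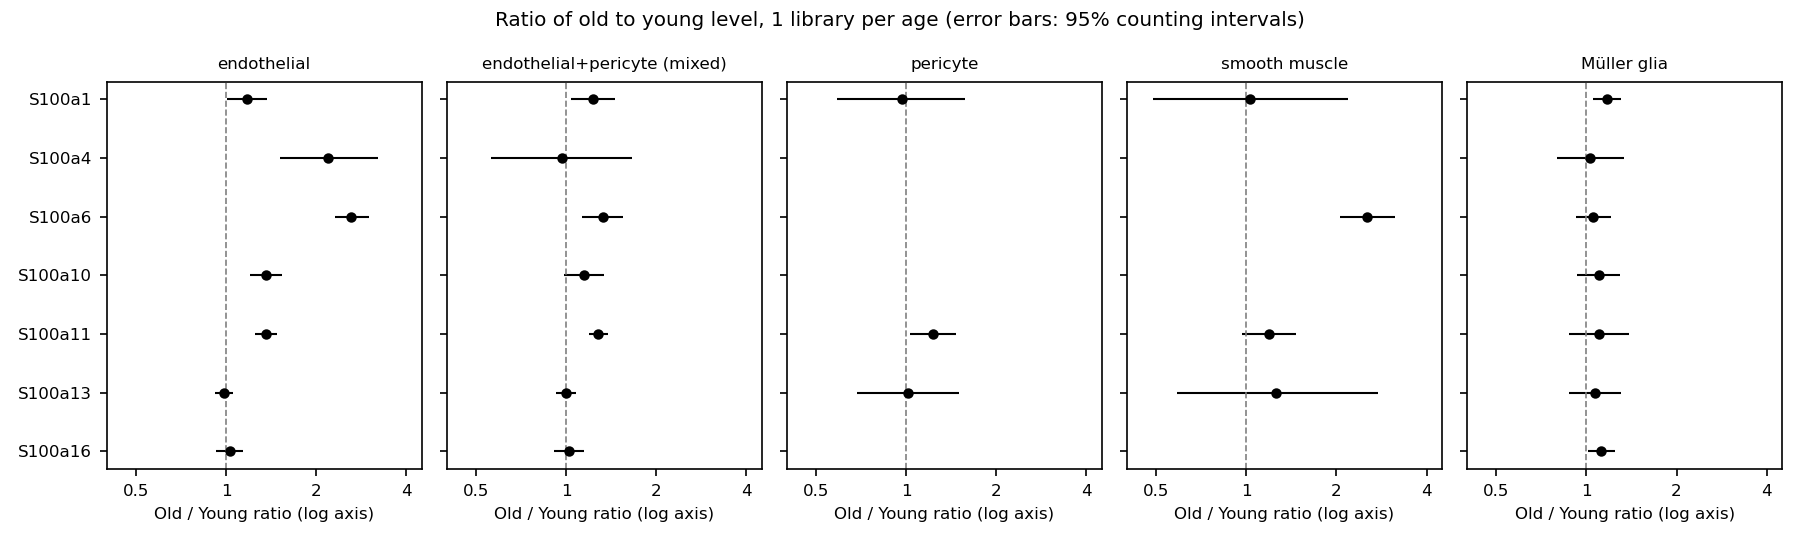
Ratio of the Old to the Young level (log axis, 1 library per age) for the members in 5 classes, with exact conditional intervals of 95% as error bars. Members with fewer than 30 UMIs in the Old and Young libraries together are left out. S100a6 has the highest ratio in endothelial-like cells (2.62) and in smooth muscle-like cells (2.53), and lies near 1 in Müller glia-like cells (1.06).

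The share of endothelial-like cells with an S100a6 UMI followed the same order. It was 13.8% in Young, 20% in Adult and 24.4% in Old, at median depths of 5641, 5979 and 7399 UMIs per cell. Thinned to 2000 UMIs per cell, which left out 15, 30 and 5 shallower cells, the shares were 9.66% (exact binomial interval 7.05 to 12.8), 13.3% (10.2 to 17.0) and 16.1% (12.7 to 20.1). Rod-like cells, which should lack S100a6, gave 3.81%, 2.78% and 4.23% at the same depth, after 61, 105 and 95 of them with fewer UMIs were left out, from median depths of 2287, 2423 and 2144. The endothelial shares were above those of the rod-like cells in every library.

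More S100a6 per positive cell went along with more positive cells. A positive endothelial-like cell carried on average 4.98 UMIs in Young, 6.18 in Adult and 9.01 in Old, before thinning. Cells with at least 10 S100a6 UMIs numbered 8 of 450, 16 of 435 and 32 of 414. The top 5% of the cells held 76.1%, 73.0% and 62.9% of the S100a6 UMIs. The highest cells had 38, 47 and 111 UMIs, and with the highest cell of each library left out the Old to Young ratio was 2.63 (2.29 to 3.03). S100a6 was therefore counted in a minority of the endothelial-like cells at every age.

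Endothelial cells of arteries, capillaries and veins differ in their genes, and the endothelial-like cells were clustered again without any S100 gene, annexin or other listed partner. Of the 5 subclusters, the third was led by Gkn3, Clu and Vegfc and had 10 of 11 arterial markers raised, and is called arterial-like. It held 272 cells: 78 in Young, 87 in Adult and 107 in Old, which were 17.3% (13.9 to 21.2), 20% (16.3 to 24.1) and 25.8% (21.7 to 30.3) of the endothelial-like cells. Subcluster 1 (409 cells) was led by Ckb, Rgcc and Cxcl12 and was the shallowest, with a median of 4127 UMIs. Subcluster 2 (394 cells) was led by Flrt2, Slc38a5 and Car4, and subcluster 4 (200 cells) carried pericyte genes such as Vtn and Abcc9. Subcluster 5 (24 cells) was led by the platelet genes Pf4, Clec1b and Ppbp.

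S100a4 was found in the arterial-like cells almost alone. Of 165 endothelial S100a4 UMIs, 164 were in the arterial-like subcluster, where 10, 6 and 17 cells carried 42, 19 and 103 UMIs in Young, Adult and Old. These gave 60.8, 25.4 and 98.4 CPM. Within the arterial-like cells the Old to Young ratio of S100a4 was 1.62 (1.12 to 2.37), below the 2.18 of the whole class. With the highest cell of each library left out it was 1.87 (1.23 to 2.92). With the highest cell of Old alone left out it was 1.40, and the interval held 1 (0.955 to 2.07). The other subclusters held 1 S100a4 UMI in all, in the Adult library. All but 1 of the 34 endothelial-like cells with an S100a4 UMI also held an S100a6 UMI.

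S100a6 was highest in the arterial-like cells and present elsewhere. The arterial-like cells held 281, 492 and 570 CPM in Young, Adult and Old, a ratio of 2.03 (1.72 to 2.40), and gave 65.9% of the S100a6 UMIs while making up 20.9% of the cells. In the other endothelial-like cells together the ratio was 2.67 (2.15 to 3.34), from 44.4 CPM in Young to 119 in Old. Of their 313 Old UMIs 111 were in 1 cell of subcluster 1, without which the Old level was 77.6 CPM and the ratio 1.75 (1.38 to 2.22). With the highest cell of each library left out, the ratio was 2.09 (1.63 to 2.70) there and 2.30 (1.93 to 2.77) in the arterial-like cells. Subcluster 1 held 85.8, 63.8 and 308 CPM, with 111 of its 204 Old UMIs in that cell. Subcluster 2 held 20.7, 45.7 and 54.7 CPM, and subcluster 4 held 52.4, 81.8 and 41.5 CPM, with overlapping Young and Old intervals. With the subclusters weighted as in the Young library, an alternative added after the data were seen, the ratio of the whole class was 2.29.

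The number of S100a6 UMIs per arterial-like cell was then read without and with a fixed depth. In Young 6.41% (2.11 to 14.3) of the arterial-like cells had 10 or more S100a6 UMIs, while the share was 13.8% (7.34 to 22.9) for Adult and 24.3% (16.5 to 33.5) for Old, at median depths of 6963, 6773 and 9144 UMIs per cell. Thinned to 2000 UMIs, with a limit of 3 S100a6 UMIs chosen after the data were seen, the shares were 10.4% (4.59 to 19.4), 12.0% (5.93 to 21.0) and 17.1% (10.5 to 25.7), and these intervals overlap. Without thinning, 0.806%, 1.15% and 1.95% of the other endothelial-like cells had 10 or more S100a6 UMIs. Thinned to 2000 UMIs, 1.40%, 1.86% and 2.30% of them had 3 or more. Of the 56 endothelial-like cells with 10 or more UMIs, 43 were arterial-like.

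**Figure D3:**
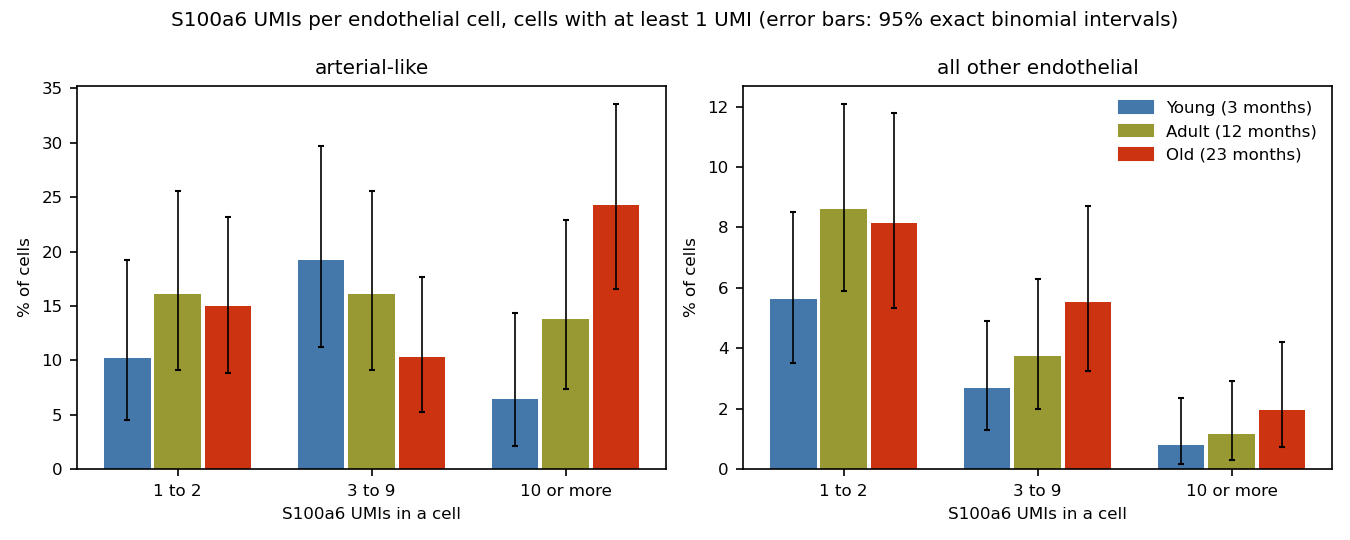
Share of arterial-like (left) and all other endothelial-like cells (right) with 1 to 2, 3 to 9 or at least 10 S100a6 UMIs, per library, with exact binomial intervals of 95% as error bars. The vertical axes differ in range. The share with at least 10 UMIs is 24.3% in arterial-like cells of Old and 1.95% in the other cells of Old.

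S100a11 and S100a10 were spread more evenly. Over all ages S100a6 was 6.12 times as high in the arterial-like as in the other endothelial-like cells, S100a11 1.67 times and S100a10 1.09 times. In the arterial-like cells S100a11 held 358, 489 and 527 CPM, with an Old to Young ratio of 1.47 (1.26 to 1.72) there and of 1.25 (1.12 to 1.38) in the other cells. S100a10 held 155, 185 and 178 CPM in the arterial-like cells of Young, Adult and Old, and its values in subclusters 1, 2 and 4 ran from 90.7 CPM (subcluster 4 in Adult) to 217 CPM (subcluster 1 in Old). Its ratio was 1.15 (0.899 to 1.47) in the arterial-like cells and 1.43 (1.25 to 1.65) in the other cells. Whether these ratios differ between subclusters was not tested.

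**Figure D4:**
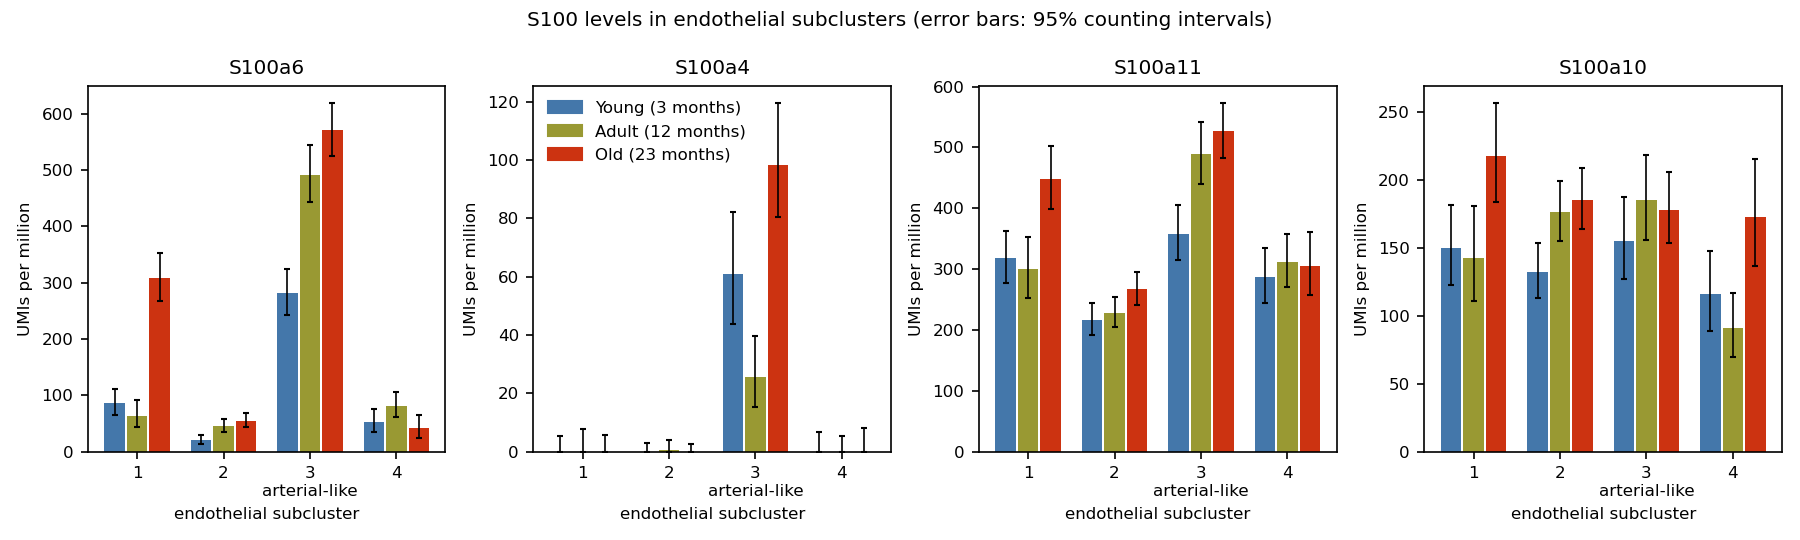
Level (CPM) of S100a6, S100a4, S100a11 and S100a10 in endothelial subclusters 1 to 4 per library, with exact Poisson intervals of 95% as error bars. The 24 cells of subcluster 5 are left out. S100a4 stands in the arterial-like subcluster alone apart from 1 UMI, and S100a6 stands there at 281 in Young and 570 in Old.

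Markers of other cells also differed between the ages in the endothelial-like cells. The 11 arterial markers together held 2621, 3115 and 3710 CPM in Young, Adult and Old, and none of them was at 0. The 10 Müller glia markers, of a class rich in S100a6, held 736, 899 and 1088 CPM, against 20361 to 21144 CPM in the Müller glia-like cells themselves. The 10 pericyte markers held 2038, 2064 and 1352 CPM, and the 6 erythroid markers 551, 202 and 1378 CPM. Over all ages the erythroid markers held 2127 CPM in the arterial-like subcluster and at most 460 CPM in any of the others. The 8 smooth muscle markers, of the class highest in S100a6, held 63.1, 60.8 and 58.7 CPM with Cnn1 at 0, against 23102 to 29627 CPM in the smooth muscle-like cells. With cells that carried UMIs of 3 or more markers of another class left out, the S100a6 ratio was 2.19 and that of S100a10 was 1.16. The part of these markers in the ratios was otherwise not tested.

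In smooth muscle-like cells S100a6 had the highest Old to Young ratio of the 3 members with at least 50 UMIs. Its 122, 176 and 361 UMIs in Young, Adult and Old gave 397, 535 and 1005 CPM and an Old to Young ratio of 2.53 (2.06 to 3.14). Positive cells numbered 23 of 38, 22 of 38 and 25 of 37, so the number of positive cells differed little. The highest 2 cells of Old held 76 and 72 UMIs, and without the highest cell of each library the ratio was 2.49 (1.97 to 3.15). Thinned to 2000 UMIs it was 1.87. S100a11 had a ratio of 1.19 (0.968 to 1.47) in the same cells. Of the 3 members with 50 UMIs, S100a6 alone was at least 1.5-fold higher in Old, where 11.7% of all genes measured were, and 0 were lower, where 6.47% were. The 10 pericyte markers held 10130, 9541 and 5316 CPM in these cells, lowest in Old, and the part of this in the result was not tested.

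In pericyte-like cells S100a11 held 283, 293 and 245 UMIs and had an Old to Young ratio of 1.23 (1.03 to 1.46). S100a6 had 12, 134 and 14 UMIs, but 111 of the 134 UMIs of Adult were in 1 cell. The Adult to Young ratio of S100a6 was 14.1 (7.81 to 28.0), and without the highest cell of each library it was 3.73 (1.61 to 9.63). The same held for S100a10, where 36 of the 40 Adult UMIs were in 1 cell and the ratio went from 12.6 (4.56 to 48.6) to 1.73 (0.293 to 11.8). Of 4 members with 50 UMIs, 1 (S100a6) was at least 1.5-fold higher in Old than in Young, where 9.47% of all genes measured were, on 14 against 12 UMIs, and 0 were lower, where 5.88% were. The interval of this ratio held 1 (1.66, 0.712 to 3.92), and S100a6 reached 50 UMIs only through the Adult library. S100a6 was also the 1 member past 1.5-fold in Adult against Young, where 7.32% of all genes were higher and 4.92% lower. The same Adult UMIs let S100a6 reach the minimum, so this count was partly set by the minimum and shows nothing on the members. The 8 smooth muscle markers held 1305, 2636 and 2211 CPM in the pericyte-like cells, lowest in Young, with Cnn1 at 0, and their part in these ratios was not tested.

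The mixed endothelial and pericyte cells, in which the markers of these classes stood together, came from 2 clusters. S100a6 held 72.1, 127 and 95.6 CPM, with an Old to Young ratio of 1.33 (1.13 to 1.55). S100a11 held 322, 367 and 413 CPM with a ratio of 1.28 (1.19 to 1.38). S100a4 held 7.81, 11.7 and 7.58 CPM, with overlapping intervals and with a ratio of 0.970 (0.561 to 1.66). The smaller cluster, led by Gkn3, Olfr558 and Vegfc, made up 21.5%, 23.9% and 16.4% of the class in Young, Adult and Old. It held 35, 44 and 25 of the 35, 45 and 26 S100a4 UMIs of the class, and S100a6 at 222, 335 and 351 CPM, against 27.0, 55.1 and 37.2 CPM in the larger cluster. None of the 7 members was 1.5-fold higher or lower in Old, where 3.44% and 3.24% of all genes were.

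In Müller glia-like cells no member was 1.5-fold apart between Young and Old. S100a1 had a ratio of 1.17 (1.05 to 1.30) and S100a16 of 1.12 (1.01 to 1.25). S100a6 held 437, 667 and 437 UMIs, with an Old to Young ratio of 1.06 (0.923 to 1.21), while Adult was 1.30 times Young (1.15 to 1.47). Its highest cells held 87, 146 and 19 UMIs, and without them the Old to Young ratio was 1.27 (1.10 to 1.46) and that of Old to Adult 0.996 (0.874 to 1.14), against 0.812 (0.718 to 0.918) with all cells. The remaining ratios, of S100a4, S100a10, S100a11 and S100a13, ran from 1.03 to 1.10 with intervals that held 1. The count of 0 in each direction stands beside 6.39% of all genes higher and 4.49% lower in Old. The 6 lens markers held 4.83, 548 and 8.29 CPM in these cells, highest in Adult, the library with the lens-like cells, and their part was not tested.

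In photoreceptors the counts were small. The Old to Young ratio of S100a1 was 1.41 (0.899 to 2.24) in cone-like cells, on 35 and 50 UMIs, and 1.89 (1.10 to 3.35) in rod-like cells, on 20 and 48 UMIs. Rod-like cells had 3 members with 50 UMIs, of which S100a1 was at least 1.5-fold higher in Old than in Young, where 8.86% of all genes were, and 0 were lower, where 8.23% were. Against Adult, all 3 (S100a1, S100a6 and S100a16) were past 1.5-fold in Old, on 24 to 48 UMIs in Old and 22 to 45 in Adult, where 7.51% of all genes were higher and 5.24% lower. The interval of S100a6 held 1 (0.953 to 3.32), and rod-like cells are the background used for S100a6. No member reached 50 UMIs in bipolar-like cells.

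The partners of the S100 proteins were counted in endothelial-like cells. Of 23 listed partners, 16 had 50 UMIs in endothelial-like cells, and none was 1.5-fold higher or lower in Old than in Young, beside the 4.88% and 3.33% of all genes. Their median log2 ratio was 0.08. Anxa2, which holds S100A10 at the membrane, held 285, 311 and 369 CPM in Young, Adult and Old, a ratio of 1.29 (1.19 to 1.41) next to the 1.36 of S100a10. Plat, the tissue plasminogen activator bound by that complex, held 343, 414 and 352 CPM, with a ratio of 1.03 (0.947 to 1.11). The scaffold Ahnak was the only partner with an interval below 1, at 0.917 (0.869 to 0.966).

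Of the annexins, all 8 had 50 UMIs in endothelial-like cells, and 6, with Anxa2 among them, had a ratio above 1. Anxa11 had 1.25 (1.03 to 1.53), Anxa7 1.18 (1.03 to 1.36), Anxa4 1.16 (0.901 to 1.49), Anxa5 1.08 (0.995 to 1.17) and Anxa6 1.04 (0.828 to 1.32). Anxa1, the partner of S100A11, had 0.944 (0.740 to 1.20) and Anxa3 0.996 (0.925 to 1.07). In Müller glia-like cells, where S100a10 held 178 to 200 CPM, only 25 Anxa2 UMIs were counted in 603 cells, so S100a10 and Anxa2 were not high in the same classes throughout.

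The intervals of Cacybp and Sugt1, binding proteins of S100A6, held 1. Cacybp had a ratio of 1.08 (0.905 to 1.29) and Sugt1 of 1.02 (0.890 to 1.17). Of the S100A4 targets, Myh9, a non-muscle myosin heavy chain, had 0.953 (0.877 to 1.03) and Trp53 had 1.08 (0.874 to 1.33). The calcium pump Atp2a2, a target of S100A1, had 1.04 (0.908 to 1.19), and Hltf, a chromatin factor that binds the S100A10 complex, had 1.33 (1.03 to 1.73). The receptors Ager and Tlr4 had 6 and 15 UMIs and the partners Ryr2, Fgf1, Syt1, Kcnk3 and Htr1b had 2 to 35, too few for a ratio.

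Calm2 and Calm3 encode calmodulin, the general EF-hand calcium sensor, and neither was 1.5-fold higher or lower in Old than in Young. Calm2 had an Old to Young ratio of 1.18 (1.08 to 1.29) and Calm3 of 1.07 (0.924 to 1.25), next to the 2.62 of S100a6.

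Of the other S100 genes, 4 had at least 50 UMIs in all kept cells. S100b, the classical glial member, had 732 UMIs, of which 95.1% were in Müller glia-like cells, at 273 CPM in Young, 67.9 in Adult and 71.4 in Old. The Young value came from 27 of 181 cells, the highest with 141 UMIs, while 51 of 214 Adult and 49 of 208 Old cells carried a UMI. The 6 astrocyte markers in the same cells held 1485, 1081 and 1120 CPM, highest in Young, and their part in the S100b level was not tested. S100a8 and S100a9, the subunits of calprotectin in neutrophils and monocytes, had 991 and 1351 UMIs. In endothelial-like cells 218 of the 219 S100a8 UMIs of Adult were in 1 cell. S100a3 had 52 UMIs, of which 75.0% were in Müller glia-like cells. S100a2, S100a5, S100a7a, S100a14 and S100g had 3 to 11 UMIs and S100z had none.

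For each member the genes outside the family whose levels were most alike were sought among 8980 genes, by Pearson's r of log2(CPM + 1) over 24 points, which were the 8 classes in 3 libraries. The points of a library share its depth and its free RNA, so r is given as a description. S100a11 was most like Rcn3, Ifitm2 and Ccdc102a, with r from 0.970 to 0.974. S100a13 was most like Lrp10, Arhgef5 and Psmb8, with r from 0.962 to 0.963. S100a6 was most like Csrp1, Nkd1 and Vim (0.945, 0.932 and 0.916). Of these, Csrp1 encodes a LIM domain protein and Vim the intermediate filament vimentin. S100a16 was most like Kdr, the endothelial VEGF receptor, Lfng and Glul, the glutamine synthetase of glia (0.928, 0.920 and 0.909).

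The remaining members had lower values. S100a10 was most like Tes, Crispld1 and Gbe1 (0.901, 0.897 and 0.896), and S100a1 was most like Isoc1, Cdc14a and Pak2 (0.900, 0.898 and 0.893). S100a4 was most like Sbspon, Car14 and Ddit4 (0.842, 0.828 and 0.813). Within the family, S100a10 and S100a16 were nearest to each other (0.886), and S100a11 was nearest to S100a13 (0.842). The nearest member to S100a6 was S100a11 (0.782).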

How the data were processed

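The labels describe 3 libraries of CD31-enriched mouse retinal cells (10x 3′ chemistry), 1 per age. The authors deposited unnormalised counts (UMIs of each gene in each barcode, all whole), made with Cell Ranger 6.1.2 on build mm10 per the labels. Barcodes with 500 to 6000 genes and 1% to 20% mitochondrial UMIs were kept, and doublets called by Scrublet (scanpy 1.11.5) were removed (0.467% to 0.861%). Since this caller marked so few, doublets between classes may remain. The libraries were integrated and clustered in Seurat 5.3.0 (R 4.3.3; 2000 variable genes without S100 genes, annexins, calmodulins and other listed partners, 30 dimensions, resolution 0.5). Endothelial-like cells were clustered again with 1500 genes and 20 dimensions. A marker counted for a cluster where 20% of its cells held it and its level was at least 25% of its highest in any cluster. A cluster took the name of the class with the largest share of its markers counted, if these were 3 or more, and was called mixed where a further class also had 50% (except pericyte with smooth muscle and Müller glia with astrocyte, which share markers). It was left unnamed where markers of another class led it, or where it had few UMIs and no marker of its own led it. Few UMIs meant that in any library its median count was under 33.3% of the median of that library. These naming limits were set after the clusters were seen.

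UMIs were summed per class and library. Intervals are exact Poisson (levels), exact conditional (ratios) and Clopper-Pearson (shares), all at 95%, and cover counting error only. With 1 library per age there was no test, p-value or replicate error. A level of 0 is drawn at 3 counts. Lists and all genes were counted past 1.5-fold on log2(CPM + 1) where they had 50 UMIs in a class. The ratio calculation was checked on simulated counts. The members and lists were chosen with earlier results of these data known. By rule, the text names the 7 members, other S100 genes with 50 UMIs, partners and calmodulins with 50 UMIs in endothelial-like cells, and the 3 genes most like each member among those with 500 UMIs. The partners and S100 genes under these limits are named with their UMI counts only. Genes that lead a cluster are named to describe it. Some values that fall under this rule are not reported here.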

Additional observations from a re-analysis of the deposited data

Results flagged for a closer look

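S100a16 lay above Young in Old in Müller glia-like cells (ratio 1.12) and below it in bipolar-like cells (0.132, interval 0.00300 to 0.95, on 1 and 9 UMIs). Of the 9 Young UMIs 4 were in 1 cell, and without the highest cell of each library 0 and 5 UMIs were left, with an interval that held 1 (up to 1.29). Whether these ratios differ was not tested. The remaining values come from small classes that were not compared between ages, where a level of Adult or Old lay above the Young interval. In B cell-like cells S100a6 held 231 CPM in Adult and no UMI in Young, and 49 of its 73 UMIs were in 1 cell.

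In the mixed T cell and microglia cluster, of 9, 29 and 14 cells, S100a4 held 42.6 CPM in Young, 356 in Adult and 823 in Old, and S100a6 held 14.2, 396 and 1091 CPM. The 92 Old UMIs of S100a4 came from 2 cells. S100a11 held 778 CPM in Old against 227 in Young. S100a8 held 324 CPM in Adult and 6020 in Old, and S100a9 held 240 (239.8) and 9822, with no UMI in Young. The Adult UMIs of S100a8 and S100a9 came from 1 cell each time, and the Old ones from 2 cells.

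In the mixed endothelial and erythroid cluster S100a4 held 40.1 CPM in Old, all 16 UMIs in 1 cell, and S100a6 held 436 CPM, with 147 of 174 UMIs in 1 cell.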

How the results depend on the processing

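No paired analysis was possible because each age had 1 library and no test was made, and no replicate could be left out. Among the Old to Young ratios of endothelial-like cells, those outside the interval of the reported value were the following. With each cell thinned to 2000 UMIs, S100a1 had 1.00, S100a6 2.24 and S100a16 0.895. Without cells carrying 3 or more markers of another class, S100a6 had 2.19 and S100a10 1.16. With the mixed endothelial and pericyte clusters counted in, S100a6 had 2.14, and weighted to the Young subclusters, an alternative added after the data were seen, 2.29. At a minimum of 200 UMIs, 1 member in place of 2 was 1.5-fold higher, since S100a4 had 165 UMIs. At 20 UMIs, 1 partner in place of none was, Syt1 with 35 UMIs, named after its value was seen. The share of endothelial-like cells with an S100a6 UMI in Young, Adult and Old was 6.25%, 9.22% and 11.4% at 1000 UMIs per cell and 13.8%, 20% and 24.4% without thinning, against 9.66%, 13.3% and 16.1%. In the mixed endothelial and pericyte cells the S100a1 ratio of 1.23 became 0.975 when thinned. The cause was not tested, apart from the depth that thinning fixes. Other filters, doublets kept, the unnamed low-UMI cluster counted in (S100a6 2.64; added after the data were seen), resolution 1.0, totals without mitochondrial, ribosomal protein and haemoglobin genes, the mean of per-cell CPM and leaving out the highest cell kept every endothelial ratio inside its interval.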

Other observations

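The 38 lens-like cells, 37 of them from the Adult library, held 31.5% of all S100a6 UMIs of the kept cells. The Adult lens-like cells measured 3233 CPM of S100a6, in 35 of 37 cells, and 741 CPM of S100a11, 455 of S100a10 and 182 of S100a4, with 18.6 CPM of S100a13. S100a6, S100a11 and S100a10 were found in at least 34 of the 37 cells. A lens cluster present in 1 library allows no comparison between ages.

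The pigment epithelium-like cells carried a different set. In the 54 cells of Old, S100a10 held 883 CPM, found in 79.6% of the cells, beside 906 CPM of S100a1, while S100a6 held 19.1 CPM and S100a11 held 1 UMI in all (3.82 CPM).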
